A study of Mus musculus with 2 samples.

Results

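The lysosomal hydrolases and membrane proteins described here are 35 genes chosen by name, of the 15168 genes that had an assembled locus in at least 1 of 2 libraries. They encode 11 glycosidases, 6 enzymes that act on sulfate groups or on heparan sulfate, 5 lipid hydrolases, 4 lipid activators and cholesterol carriers, 1 peptidase, 1 phosphatase and 7 membrane proteins. RNA came from wild-type mouse bone marrow cells cultured with M-CSF alone (M) or with M-CSF and RANKL (MR), and the marrow donors' strain, age and sex were not given in the sources used here. M-CSF keeps monocytes and macrophages alive and dividing, and RANKL is the cytokine that turns them into osteoclasts. The labels give 2 days with RANKL after a first period with M-CSF and the study's culture method gives a longer time, and no source used here names the day on which RNA was taken. Each condition was measured in 1 library of bulk RNA, so no difference below has a replicate check, no p-value was computed, and every value describes these libraries.

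Lysosomes are acidic compartments in which hydrolases break down sugars, lipids and proteins that the cell has taken up or wants to recycle. Most of the soluble hydrolases receive a mannose 6-phosphate mark in the Golgi and are carried to the lysosome by receptors for that mark, whereas the membrane proteins line its wall, transport ions and small molecules, or shield the wall from digestion. Macrophages hold many lysosomes for digesting what they engulf. Osteoclasts send lysosome-related vesicles to the membrane facing bone, the ruffled border, and release acid and hydrolases there.

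Many lysosomal genes carry a short sequence near their start that the factors Tfeb, Tfe3 and Mitf can bind, of which CACGTG is the core, and TCACGTGA a longer form. TCACGTGA holds CACGTG, and both read the same on both strands. RefSeq promoter sequences on GRCm38.p6, from 250 bases before to 50 bases after the start, were found for 31 of the 35 members. CACGTG was present in the promoters of 9 of these 31 members, or 29.0%, against 8.09% of the 27025 genes in the table. The 9 members were Gaa, Gla, Glb1, Naglu, Arsa, Sgsh, Lamp1, Mcoln1 and Cln3. TCACGTGA was present in Gla, Mcoln1 and Cln3, or 9.68% of the members, against 1.12% of all genes. TCACGTGA with a G before it and a C after it was present in Cln3 alone among the members, or 3.23%, against 0.37% of all genes. A match is a description of the letters and was not tested as a site.

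The promoters of the 3 members with TCACGTGA are shown with that of Lamp1, which held 4 copies of CACGTG and was among the members with the largest difference towards M, and with that of Arsb, which had the largest difference towards MR and held no copy. Each reads 5′ to 3′ on the strand of its gene, with every CACGTG in capitals. The Lamp1 sequence lies at chr8:13158911-13159210 on the plus strand, Gla at chrX:134600956-134601255 on the minus strand, Cln3 at chr7:126583187-126583486 on the minus strand, Mcoln1 at chr8:3500269-3500568 on the plus strand and Arsb at chr13:93771429-93771728 on the plus strand. The Cln3 sequence belongs to the more downstream of the 2 Cln3 starts in the table, and the upstream start held no copy.
Lamp1: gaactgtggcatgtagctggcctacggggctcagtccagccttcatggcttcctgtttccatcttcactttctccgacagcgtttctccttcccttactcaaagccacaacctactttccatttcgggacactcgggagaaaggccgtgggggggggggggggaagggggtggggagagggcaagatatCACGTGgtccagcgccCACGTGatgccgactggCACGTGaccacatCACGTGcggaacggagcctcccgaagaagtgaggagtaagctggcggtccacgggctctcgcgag
Gla: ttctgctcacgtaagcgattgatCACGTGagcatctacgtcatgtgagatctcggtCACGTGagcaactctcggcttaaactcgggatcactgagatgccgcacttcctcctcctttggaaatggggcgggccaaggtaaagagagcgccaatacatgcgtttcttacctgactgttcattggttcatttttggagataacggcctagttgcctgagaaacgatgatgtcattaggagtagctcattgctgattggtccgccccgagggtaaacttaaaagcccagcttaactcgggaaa
Cln3: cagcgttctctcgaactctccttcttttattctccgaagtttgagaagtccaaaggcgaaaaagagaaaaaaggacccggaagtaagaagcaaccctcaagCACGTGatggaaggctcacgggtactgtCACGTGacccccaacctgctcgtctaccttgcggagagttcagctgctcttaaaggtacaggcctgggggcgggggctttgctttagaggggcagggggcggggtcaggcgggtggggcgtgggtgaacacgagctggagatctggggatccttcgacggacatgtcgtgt
Mcoln1: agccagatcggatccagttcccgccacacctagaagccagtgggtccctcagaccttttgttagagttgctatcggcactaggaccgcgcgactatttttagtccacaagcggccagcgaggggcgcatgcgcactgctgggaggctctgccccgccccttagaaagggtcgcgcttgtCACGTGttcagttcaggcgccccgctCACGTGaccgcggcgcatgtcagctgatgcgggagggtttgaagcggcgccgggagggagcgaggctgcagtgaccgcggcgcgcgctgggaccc
Arsb: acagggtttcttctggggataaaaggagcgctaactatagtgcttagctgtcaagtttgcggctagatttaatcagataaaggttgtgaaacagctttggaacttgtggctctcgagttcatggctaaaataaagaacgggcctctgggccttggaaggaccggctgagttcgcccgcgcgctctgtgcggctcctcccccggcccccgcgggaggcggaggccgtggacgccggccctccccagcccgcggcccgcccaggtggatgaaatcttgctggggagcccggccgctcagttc

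The members were measured as TPM, a level per transcript length out of 1000000, summed over the loci that StringTie assembled from the reads and that were given here to each gene by its exons. M had 19422 and MR 19922 assembled loci, from about 3.63 and 2.98 Gb of aligned bases. Of the 35 members, 34 had a value and all 34 passed the minimum of 1 TPM, with levels from 19.2 to 12729 in M and from 17.3 to 3502 in MR. The exception was Glb1, whose locus went to another gene and is described below. The macrophage and osteoclast state of the cultures was read from lists of markers. All 9 osteoclast markers were higher in MR, and their TPM summed to 147 in M and to 24353 in MR. Of 6 macrophage markers, Adgre1, Lyz2 and Mertk were lower in MR past the threshold used below, with log2 ratios of -2.20, -1.82 and -2.70. Itgam, Cd68 and Csf1r lay within it, at -0.34, -0.26 and 0.32. The 6 markers summed to 20299.5 in M and 7876 in MR, and without Lyz2, a choice made after the data were seen, the other 5 summed to 4265 and 3342. All 8 neutrophil markers had a locus in both libraries and summed to 1414 in M and 963 in MR, with Mmp8 alone past the threshold, whereas the erythroid, lymphoid, stromal, mast cell and dendritic lists each summed to between 2.11 and 24.5, and Cd3e, Ms4a2 and Cd209a had no locus in either library. The part of these other cells in the results below was not tested, and in bulk RNA fewer cells of a type and less RNA per cell cannot be told apart.

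The members differed in both directions. Arsb, Ctns, Smpd1, Gm2a, Npc2 and Cln3 were higher in MR by a log2 ratio over 1, and Lamp1, Lipa, Lamp2, Psap, Gla, Hgsnat, Scarb2, Pla2g15, Galns, Acp2 and Ppt1 were lower by a log2 ratio under -1. The log2 ratio is that of MR to M after adding 1 to each TPM. The 6 higher members were 17.6% of 34, against 21.2% of the 13801 genes that reached 1 TPM in at least 1 library. The 11 lower members were 32.4%, against 13.4% of these genes. The other 17 members lay between. A log2 ratio above 0 was found for 17 of 34 members, against 59.4% of all genes. The median log2 ratio of the members was -0.03, against 0.20 for all genes tested, and their range was -2.01 to 4.88. Past a log2 ratio of 2 there was 1 member in the direction of MR, Arsb, and there were 2 in the direction of M, Lamp1 and Lipa, where 7.14% and 3.98% of all genes lay. Towards MR, the members nearest to the threshold were Cln3, past it at 1.04, and Sgsh, within it at 0.85. Towards M, they were Ppt1, past it at -1.16, and Man2b1, within it at -0.85. With its main locus alone, as described below, Cln3 was at -0.71 and not among the higher members.

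**Figure D1:**
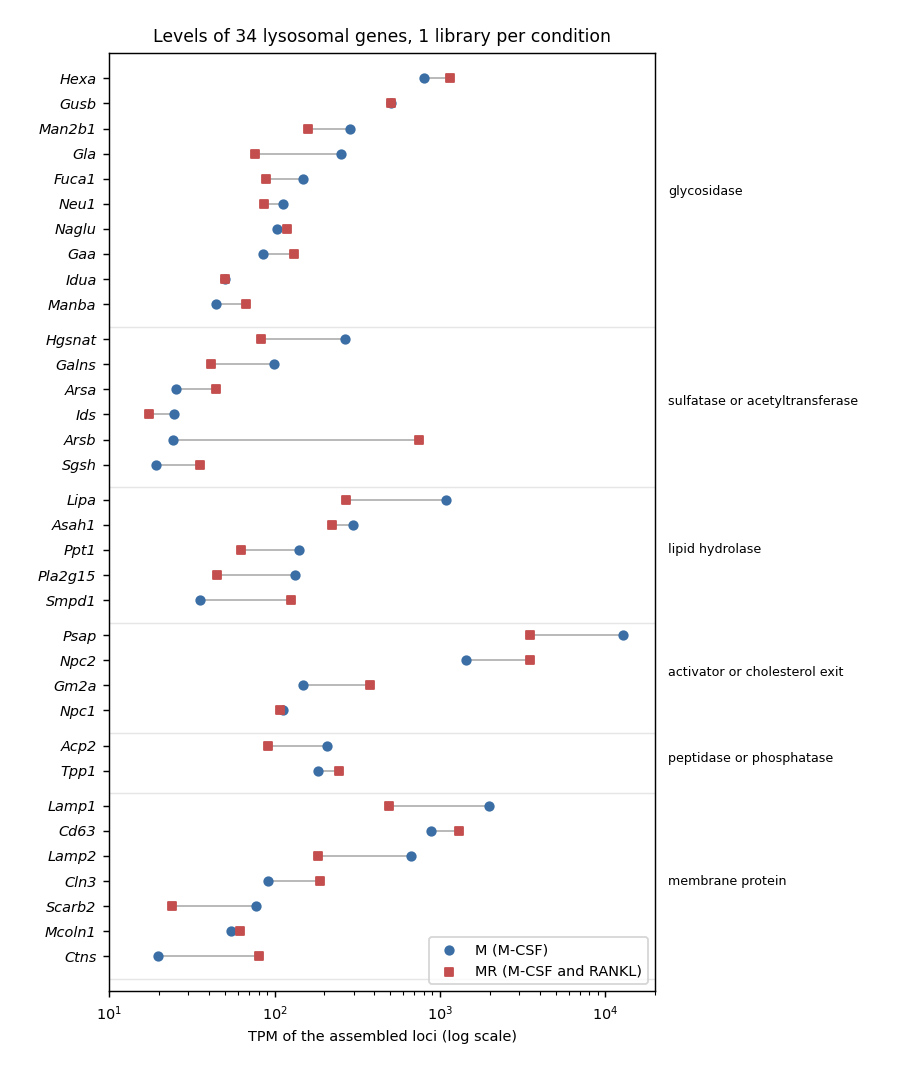
TPM of the assembled loci in M (blue circles) and MR (red squares) for 34 members, on a log axis, grouped by role and joined by a grey line for each gene; 1 library per condition, so there are no error bars. Arsb has the longest line, from 24.2 to 744, while Gusb and Idua show overlapping points.

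Together the 34 members held 23141 TPM in M and 14269 TPM in MR, or 2.31% and 1.43% of the 1000000. The difference between these sums lay in Psap, which made up 55% of the sum in M and 24.5% in MR. Without Psap the other 33 members summed to 10411 in M and 10776 in MR. The order at the top also differed, with Psap, Lamp1, Npc2, Lipa and Cd63 the members of highest TPM in M and Npc2, Psap, Cd63, Hexa and Arsb in MR. By coverage per aligned Gb in MR, Hexa, at 74.8, lay below Arsb, at 331, and Gusb, at 224, and was not among the first 5. The median level over members was 137 in M and 113 in MR.

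Among the enzymes, the largest difference was in Arsb. Arsb encodes arylsulfatase B, which removes sulfate from the galactosamine units of dermatan and chondroitin sulfate, and the gene spans chr13:93771630-93943016 on the plus strand of GRCm38. It reached 24.2 TPM in M and 744 TPM in MR, at a ratio of 30.7. The log2 ratio was 4.88, with a 95% counting interval of 4.82 to 5.06, in which the spread between cultures has no part. Arsb thus lay at rank 4865 of the tested genes by level in M and at rank 215 in MR, and at rank 80 of 13801 by the size of its log2 ratio towards MR. A single locus spanned 99.2% of its exon bases in M and 97.5% in MR, and its ends differed by 54 and 64 bases between the libraries.

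Of the other 5 genes of this group, 2 were lower in MR past the threshold and 3 lay within it. Hgsnat, the membrane-bound acetyltransferase of heparan sulfate degradation, had 266 TPM in M and 82.5 TPM in MR, which was 3.23-fold lower. Galns, which removes sulfate from keratan sulfate and chondroitin sulfate, had 99.7 and 41.5, a log2 ratio of -1.24. Arsa, the sulfatase of the myelin lipid sulfatide, had 25.4 in M and 44.2 in MR. Sgsh and Ids, both of which take sulfate off heparan sulfate, had 19.2 and 24.8 in M and 35.5 and 17.3 in MR. The log2 ratios of Arsa, Sgsh and Ids, at 0.77, 0.85 and -0.50, were within the threshold. Of all 6 genes, 16.7% were higher and 33.3% lower past the threshold, against 21.2% and 13.4% of all genes. The median over the 6 genes was 0.14. From coverage, the log2 ratio of Ids was -1.35, past the threshold, and that of Sgsh was 0.30. The Sgsh locus spanned 52.8% of its exon bases in M and 54.7% in MR. Loci on the opposite strand, given to the neighbour Card14, lay over 76.9% of them in M and 44.3% in MR. These Card14 loci had a TPM of 33.2 and 30.2.

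Heparan sulfate is taken apart by enzymes that act in turn, and 6 members belong to these steps. Of the 6 genes, Hgsnat alone passed the threshold in TPM, towards M, where 13.4% of all genes lay past it. From coverage Ids passed it as well, at -1.35. Gusb, which removes glucuronic acid, had a TPM of 504 in each library. Naglu, which removes N-acetylglucosamine, had 103 and 119, and Idua, which removes iduronic acid, 49.8 and 50.3. The counting interval of the log2 ratio held 0 for Gusb (-0.08 to 0.08) and Idua (-0.13 to 0.16). These values hold for the TPM scale. With median-of-ratios scaling, which moved the median of all genes from 0.20 to 0.03, the log2 ratio was -0.19 for Gusb and -0.17 for Idua, outside these intervals.

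The median log2 ratio of the 10 glycosidases with a value was 0.01. Past the threshold, 0 were higher, against 21.2% of all genes, and 1 was lower, or 10% against 13.4%. That gene was Gla, alpha-galactosidase A, which clips galactose from globotriaosylceramide and is the enzyme missing in Fabry disease. It reached 253 TPM in M and 76.0 TPM in MR, at a log2 ratio of -1.72 with a counting interval of -2.03 to -1.44. Man2b1 and Fuca1, which remove mannose and fucose from glycoprotein sugars, were the next lowest, at 287 and 148 in M and 159 and 88.8 in MR, with log2 ratios of -0.85 and -0.73. Gaa, which breaks down glycogen, and Manba, a further mannosidase, lay in the other direction, at 85.2 and 44.3 in M and 131 and 67.0 in MR. The sialidase Neu1 had 112 in M and 86.8 in MR. Neu1 works in a complex with Glb1 and the protective protein Ctsa, and Ctsa, which is no member, had 904 and 871.

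Hexa, the alpha subunit of beta-hexosaminidase, had 801 TPM in M and 1154 TPM in MR and a log2 ratio of 0.53, the highest TPM of the glycosidases in both libraries. Hexa needs the lipid carrier Gm2a to degrade the ganglioside GM2, and Gm2a had 148 in M and 378 in MR, at a log2 ratio of 1.35. The Hexa value depends on the deposited unit. Its coverage, the mean read depth per base, per aligned Gb was 370.4 in M and 74.8 in MR, and the log2 ratio from coverage was -2.29. By coverage per aligned Gb Hexa lay below Gusb, at 224, in MR. The coverage listed for Hexa in MR was 14.6% of the coverage that its FPKM corresponds to, whereas the 2 units corresponded in M, and which of the 2 units is closer to the RNA level was not tested.

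Of the 5 lipid hydrolases, 3 were lower in MR past the threshold, or 60% against 13.4% of all genes. The 1 that was higher made up 20%, against 21.2% of all genes. The median log2 ratio of these 5 genes was -1.16. Lipa, lysosomal acid lipase, at chr19:34492318-34527474 on the minus strand, frees cholesterol from the esters of engulfed lipoproteins. It reached 1092 TPM in M and 271 TPM in MR, which was 4.03-fold lower, with a counting interval of the log2 ratio of -2.06 to -1.96. Pla2g15, a lysosomal phospholipase, had 133 in M and 44.8 in MR, and Ppt1, which strips palmitate from proteins, had 141 and 62.4. The log2 ratio of Ppt1 was -1.16, and from coverage it was -0.69, within the threshold. Smpd1, acid sphingomyelinase, went the other way, with 35.4 in M and 125 in MR and a log2 ratio of 1.79. Asah1, acid ceramidase, cleaves the ceramide that Smpd1 releases and had 298 and 222. Smpd1 and Asah1 thus stood at ratios of 3.54 and 0.747 between the same libraries.

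The 4 genes for proteins that hand lipids to these enzymes or out of the lysosome summed to 14433 TPM in M, more than all the enzymes together at 4937. Psap encodes prosaposin, the precursor of the saposins that present sphingolipids to their hydrolases, at chr10:60277627-60302597 on the plus strand of GRCm38. It reached 12729 TPM in M and 3492 TPM in MR, which placed it at rank 5 of all tested genes in M and rank 22 in MR, and the log2 ratio was -1.87. From coverage it was -2.40. Npc2, the soluble carrier that takes cholesterol to the lysosomal wall, at chr12:84754562-84773152 on the minus strand, had 1443 in M and 3502 in MR, at a log2 ratio of 1.28, and its locus spanned 96.7% of its exon bases in M and 61.3% in MR. Npc1, the membrane protein that receives cholesterol from Npc2, had 113 and 108, with a counting interval of -0.14 to 0.01 on the TPM scale and a log2 ratio of -0.25 with median-of-ratios scaling. The 3 genes of cholesterol release and exit, Lipa, Npc2 and Npc1, thus had log2 ratios of -2.01, 1.28 and -0.06.

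Of the peptidase and the phosphatase, the latter passed the threshold, towards M, where 13.4% of all genes lay past it. Tpp1, which cuts tripeptides from the ends of proteins, had 184 TPM in M and 246 TPM in MR, within the threshold. Acp2, lysosomal acid phosphatase and distinct from the osteoclast marker Acp5, had 208 in M and 91.7 in MR. The log2 ratio of Acp2 was -1.17, but its locus spanned 99.6% of its exon bases in M and 37.3% in MR, where much of the rest lay under a locus of the neighbour Ddb2 on the other strand.

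Among the 7 membrane proteins, 3 were lower and 2 higher in MR past the threshold, with a median log2 ratio of 0.19. These were 42.9% and 28.6%, against 13.4% and 21.2% of all genes. Lamp1 (chr8:13159161-13175338, plus strand) and Lamp2 (chrX:38401357-38456454, minus strand), the heavily glycosylated proteins that line the lysosome, had a TPM of 1978 and 668 in M and of 490.3 and 182 in MR. Their log2 ratios were -2.01, with a counting interval of -2.06 to -1.97, and -1.87. Scarb2, a membrane receptor of the lysosome, had 77.1 in M and 23.9 in MR, which was 3.23-fold lower. Cd63, a tetraspanin of lysosomes and of the vesicles that fuse with the cell surface, was within the threshold. It had 882 in M and 1297 in MR, at a log2 ratio of 0.56.

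The remaining membrane proteins were Mcoln1, Ctns and Cln3. Mcoln1, the calcium channel of the lysosome, had 54.2 in M and 61.8 in MR, and its counting interval of -0.20 to 0.58 held 0, whereas the log2 ratio from coverage was 0.75. That interval rests on a shortest coding transcript of 363 bases, while the gene has 7555 exon bases. A longer transcript would give more estimated read pairs and a narrower interval. Ctns, which exports cystine, had 19.6 and 80.0, a log2 ratio of 1.97. Cln3, the membrane protein lost in juvenile Batten disease, had 91.8 and 189, a log2 ratio of 1.04. Both higher values rest in part on an additional locus in MR. The main Cln3 locus, with most of its exon bases, had 91.8 in M and 55.7 in MR, at a log2 ratio of -0.71, and a further locus in MR with 134 held 7.58% of the exon bases and ran past the upstream Cln3 start across the neighbour Apobr. In M the whole of that stretch lay under a plus-strand locus given to Apobr, with 173. In MR the Apobr locus was shorter, with 86.6. The further Cln3 locus thus lies where M has signal given to Apobr. The main Ctns locus had 19.6 and 43.7, at a log2 ratio of 1.12. A piece without strand over the end of Ctns added 36.3 in MR, whereas the piece there in M, at 24.9, was placed on the opposite strand and given to no gene. With both pieces added to Ctns the log2 ratio was 0.83, within the threshold. TPM is scaled by length, so sums over pieces of the same transcript, as in 1.97 and 0.83, can count it more than once.

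**Figure D2:**
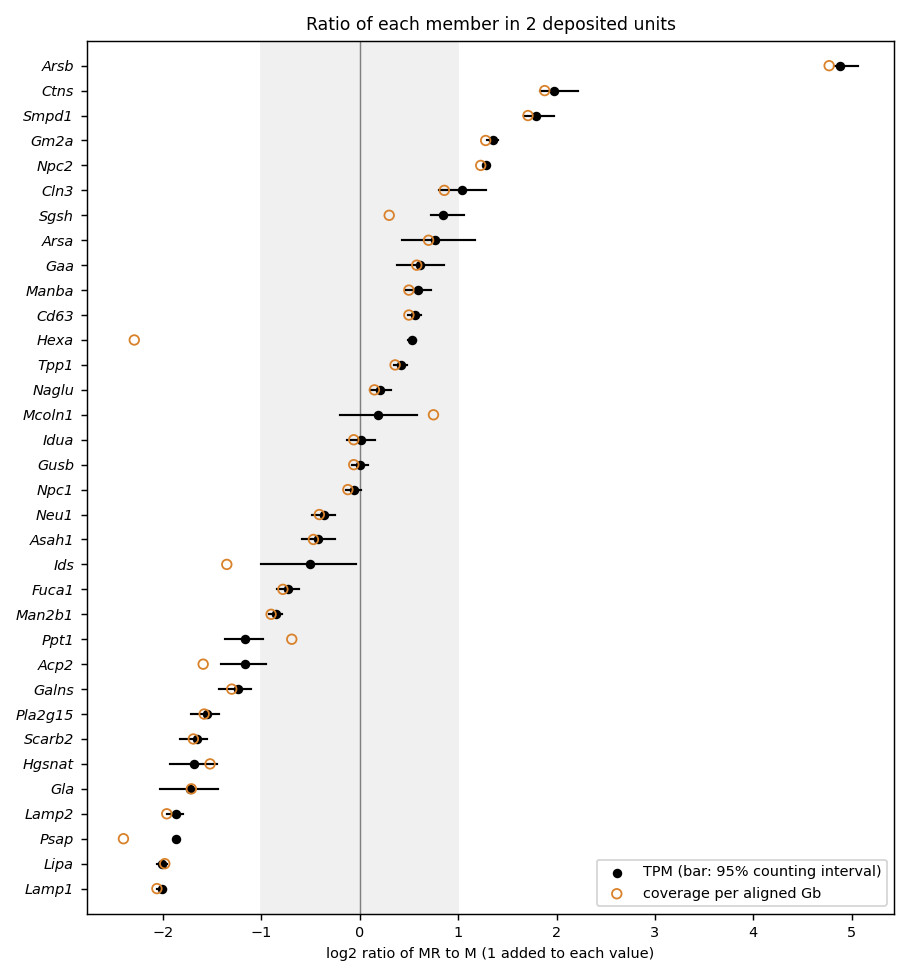
Log2 ratio of MR to M for 34 members, sorted, from TPM (black points, with the 95% counting interval as a bar) and from coverage per aligned Gb (open orange circles), with the range from -1 to 1 shaded. The circles sit near the points except for Hexa, at -2.29 against 0.53, and to a lesser extent Ids, Psap, Sgsh, Mcoln1, Ppt1 and Acp2.

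The counting interval, which rests on read pairs estimated from FPKM, aligned bases and the shortest coding transcript, lay above 0 for 14 members, below 0 for 16 and across 0 for 4. It covers counting error only. The interval was not computed for all genes, so no share over all genes stands beside these counts. Its width depends on the length of that transcript, which was 363 bases for Mcoln1 and 4127 for Gm2a. With coverage in place of TPM, 30 of 34 members kept their side of the threshold, and those that did not were Hexa, Ids, Ppt1 and Cln3. In both units 5 members were higher and 10 were lower past the threshold. The share of all genes past it in both units was not computed. With coverage alone, 5 of 34 members were higher and 12 lower, against 15.6% and 10.2% of all genes. For 21 members the listed coverage was within 10% of that expected from FPKM in both libraries, and among these were Arsb, Smpd1, Gm2a, Npc2, Lipa, Lamp1 and Gla.

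The extents of the loci were also compared. The 5′ ends of the main locus were within 100 bases of each other in M and MR for 30 of 34 members, and the 3′ ends for 29. The 5′ ends of Acp2, Ctns, Fuca1 and Cln3 differed by 322, 269, 167 and 105 bases. The 3′ ends of Acp2, Ids, Npc2, Psap and Neu1 differed by 3228, 2783, 1933, 863 and 561 bases. For Psap, the locus in M stopped before the last exon bases, and a separate locus over 14.8% of the Psap exon bases was placed on the minus strand in M with a TPM of 12547. No such locus was assembled in MR. With that locus added to Psap the log2 ratio was -2.86. TPM is scaled by length, so this sum counts the transcript more than once in M if both loci belong to it. Over the long last exon of Ids a plus-strand locus had 34.9 in M and 27.2 in MR, more than the 24.8 and 17.3 of Ids itself. Whether such pieces hold reads of the gene or of an antisense RNA cannot be told apart from these tables.

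**Figure D3:**
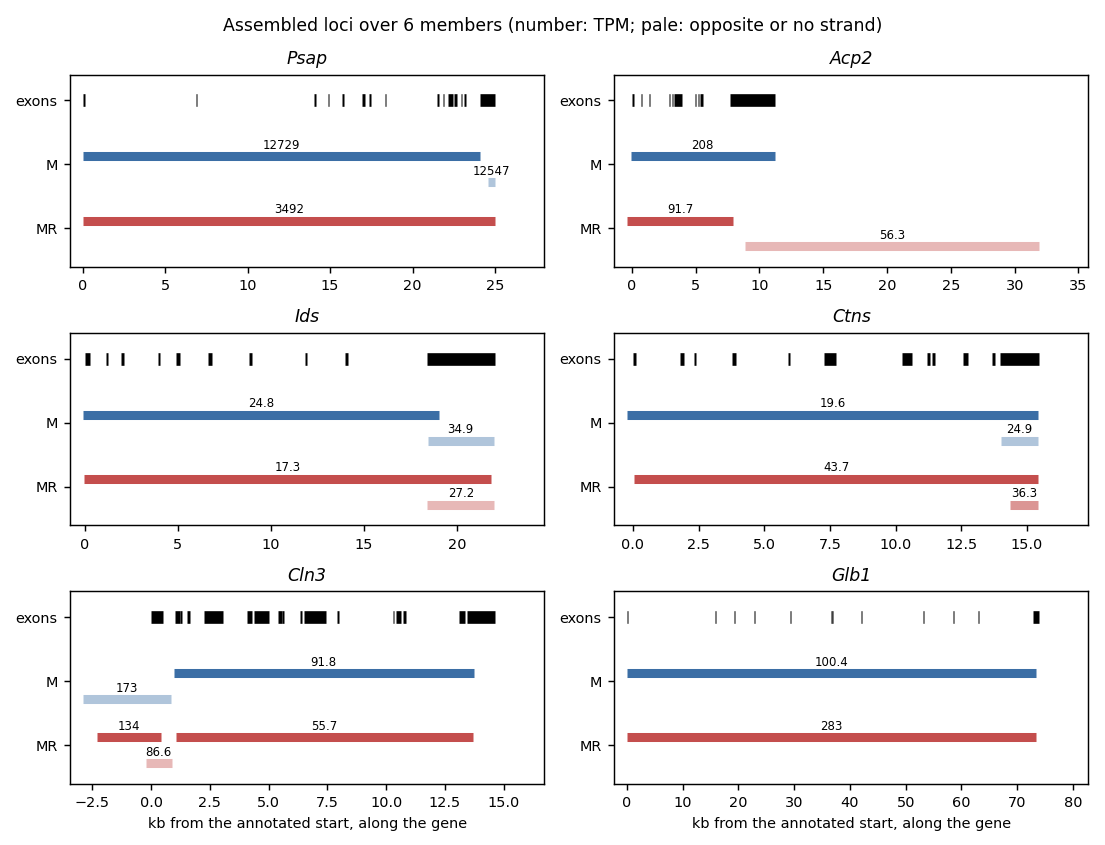
Extents of the annotated exons (black) and of the assembled loci in M (blue) and MR (red) over 6 members, in kb from the annotated start along the gene, with the TPM of each locus printed above it and loci on the opposite strand or without strand in pale colour. Over Psap, M has a locus on the strand of the gene with 12729 and a locus on the opposite strand with 12547. Cln3 in MR has a further upstream locus with 134, and the Acp2 locus in MR is shorter than that in M.

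Glb1, beta-galactosidase, had no value of its own. Tmppe overlaps its first part on the same strand, and the locus over both held more exon bases of Tmppe and was given to it by the rule. That locus ran from 114401096 to 114474376 on chromosome 9 in M and covered 82.0% of the Glb1 exon bases. It reached 100.4 TPM in M and 283 TPM in MR, at a log2 ratio of 1.49, while its coverage was 168 and 123 and the log2 ratio of coverage per aligned Gb was -0.16.

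The members with CACGTG in a promoter were found in both directions. Of the 8 with a value, 6 had a log2 ratio above 0 and 2 below, and 1 was past the threshold towards MR, Cln3, and 2 towards M, Lamp1 and Gla. Over all genes, 59.4% had a log2 ratio above 0, and 21.2% and 13.4% were past the threshold towards MR and M. The median of the 8 members was 0.41, against -0.18 for the 22 members whose promoters in the table held no copy. The Cln3 value includes the additional locus in MR that ran past its upstream start, whose promoter held no copy. With the main Cln3 locus alone the log2 ratio was -0.71, below 0 and within the threshold, and the median was not recomputed. Lamp1 with 4 copies and Gla with 2 were lower in MR, and Mcoln1 with 2 copies had a log2 ratio of 0.19.

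Of 22 other lysosomal genes, 1 was higher and 1 lower past the threshold, or 4.55% each, against 21.2% and 13.4% of all genes, and their median was -0.04. The higher gene was Hyal2, a hyaluronidase, with 30.8 in M and 72.7 in MR. The lower gene was Lgmn, the asparaginyl endopeptidase legumain, with 2494 and 329.9, a log2 ratio of -2.91. Galc, which removes galactose from galactosylceramide, had 36.1 in M and 19.5 in MR, within the threshold at -0.86. From coverage its log2 ratio was -1.04, past the threshold.

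Of 14 genes for the delivery and regulation of lysosomal proteins, 13 had a value, 2 were higher past the threshold, or 15.4% against 21.2% of all genes, and 0 were lower, against 13.4%. Gnptab, which encodes the catalytic subunits of the enzyme that places the mannose 6-phosphate mark on hydrolases, had 35.3 TPM in M and 253 TPM in MR, at a ratio of 7.16 and a log2 ratio of 2.81. Its partner subunit Gnptg had 36.3 and 29.9. Igf2r, the large receptor for the mark, had 45.6 in M and 109 in MR, at a log2 ratio of 1.24, and M6pr, the small receptor, had 359.7 and 589.9, at 0.71. Nagpa, which uncovers the mark, had 69.4 and 60.5. Sumf1, which activates all the sulfatases, had 113 in M and 57.4 in MR, at -0.96, while its log2 ratio from coverage was -0.10.

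The factors that bind the CACGTG core were measured as well. Tfeb had 31.4 TPM in M and 27.0 TPM in MR, Tfe3 64.7 and 44.9, and Mitf 30.5 and 39.9. None of the 3 passed the threshold in TPM. For Tfeb the coverage gave a log2 ratio of 2.23 against -0.21 from TPM, so that its direction depends on the unit.

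**Figure D4:**
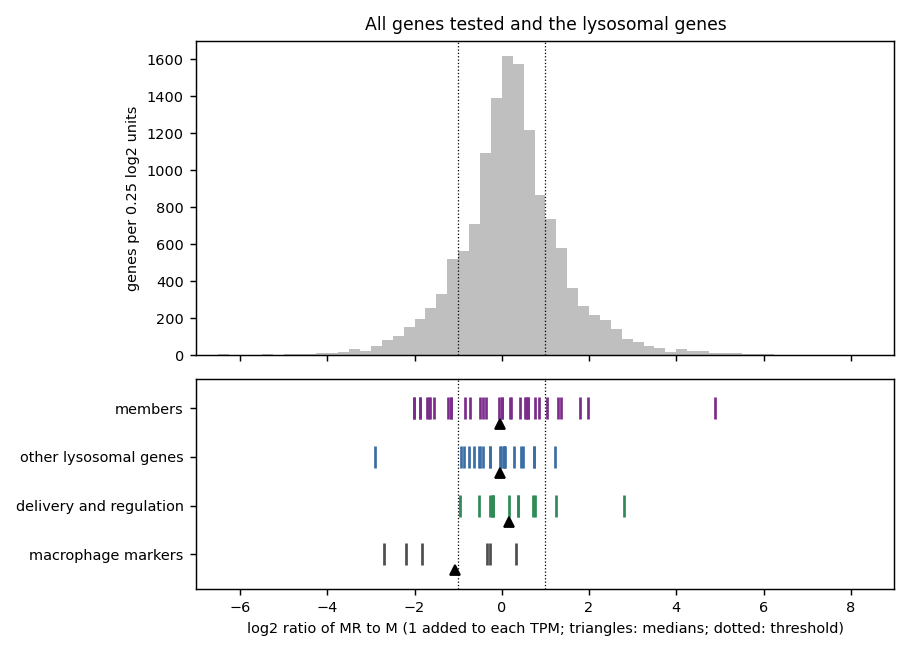
Number of genes per 0.25 log2 units among the 13801 genes tested (grey bars, genes beyond -7 and 9 not shown) above the log2 ratios of the members, of the lists of other lysosomal genes and of delivery and regulation, and of the macrophage markers (ticks, with triangles for medians and dotted lines at -1 and 1). The members spread from -2.01 to 4.88 around a median of -0.03, and Gnptab stands at 2.81 in the delivery list.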

How the data were processed

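The authors built the libraries with the NEB Next Ultra RNA LP Kit, trimmed adaptors (Trim Galore), mapped read pairs to mm10, which is GRCm38, by HISAT2, and quantified with StringTie and GENCODE vM27. SAMtools and FastQC are also named in the submitters' processing notes, and versions are not given in the sources used here. The deposited tables list coverage, a signal of read depth per base that is not scaled for library size, FPKM, and TPM, a score that the authors scaled so that the assembled loci sum to 1000000, with a further 87234 in M and 129264 in MR in entries that carry gene names. Those entries hold GRCm39 positions and were not used. Each assembled locus was given to the GENCODE vM21 gene that had most exon bases inside the locus (50 or more), with matching strand or none. Genes inside another gene's locus (392) had no value, 360 had a shared locus and 14416 their own. In this way 95.4% of the TPM of M and 96.9% of that of MR was given to genes. The assignment was tested on simulated loci, each a whole gene on its own strand with slightly trimmed ends. Split, antisense and overrunning loci, such as those described above, were not part of that test. Log2 ratios used a pseudocount of 1 and a TPM of at least 1 in a library. Aligned Gb were taken as the modal value of coverage over FPKM where FPKM exceeded 5, and counting intervals (Wilson, 95%) from read pairs of 300 aligned bases. The interval is on the ratio without a pseudocount. No source used here states that strand was kept or used in counting, so reads of a gene and of its antisense partner cannot be told apart. Named were all members, genes of the lists past a log2 ratio of 1 with a TPM of at least 10, partners of members, and markers. Tfeb, Tfe3, Mitf, Gnptg, M6pr, Nagpa and the neighbours Tmppe, Ddb2, Apobr and Card14 fall outside this rule and were chosen after their values were seen. The members and lists were chosen with earlier results of these data known. Scripts ran on matplotlib 3.10.9, scipy 1.17.1, pandas 2.3.3 and numpy 2.4.6 under Python 3.11.15. Protein sequences were not analysed here, and some genes of the lists are not reported here.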

Additional observations from a re-analysis of the deposited data

Results flagged for a closer look

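A locus over the exons of Glb1, which the comparison gives to Tmppe and therefore does not use for Glb1, had a TPM of 283 in MR against 100.4 in M, with the opposite order in coverage. A small locus over exon bases of Lipa on the opposite strand was given to no gene. It had a TPM of 0.795 in MR against 0.198 in M, both under the minimum of 1 TPM. Each locus was singled out because it lies in data outside the comparison and its TPM was above that in M. Neither locus has a replicate.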

How the results depend on the processing

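Of 340 values of single members under 10 alternatives, 281 stayed inside their counting interval, 58 left it and 1 changed sign after passing the threshold: Cln3, at -0.71 with the locus of most exon bases alone. Of the called members, 4 higher and 10 lower ones kept their side of the threshold in every one of these alternatives, and Cln3, Ctns (0.83 with loci given to no gene added on either strand) and Ppt1 (-0.69 with coverage) did not. No alternative returned to Acp2 the exon bases that lay under the Ddb2 locus in MR. That Acp2 kept its side is therefore no check on this split. Of the members within the threshold, Man2b1 passed it towards M with median-of-ratios scaling, at -1.04. With coverage, Hexa and Ids passed it towards M, at -2.29 and -1.35. The TPM value of Hexa lay on the other side of 0, at 0.53. The single-locus and added-loci alternatives, and leaving out Psap from the sum, were chosen after the data were seen. With a log2 threshold of 2, which admits fewer genes by construction, 1 member was higher and 2 lower, against 986 and 549 of all genes; of the other lysosomal genes 0, and of the delivery genes 1, were higher. All genes past the threshold numbered 2928 higher and 1848 lower, 1656 and 1033 when 10 TPM was required, and 1793 and 1100 with a locus of its own in both libraries. The summed TPM of the members in M and MR was 24699 and 13369 with median-of-ratios scaling. It was 29053 and 16696 when the mitochondrial and 20 top genes were removed, and 23137 and 14099 with the single locus. Adding loci given to no gene made it 35829 and 14323. The value of 35829 counts Psap more than once if both loci over it in M belong to the same transcript. Without Psap the sums were 10411 and 10776. Among other lysosomal genes, 3 were lower with median-of-ratios scaling, 2 without the top genes and 2 with coverage, where 2 were higher. Among delivery genes, 1 was lower under each of FPKM, median-of-ratios scaling and removal of the top genes, and the cause was not tested. No paired analysis was possible because each condition has 1 library, and no replicate could be left out.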
